A study of Mus musculus with 30 samples.

Results

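After 24 h without 2i/LIF and a return to serum/LIF for 48 h, mouse secondary iPSCs still differed from cells that had never differentiated before the same re-seeding. The 24 h cells were lower for most of the naive pluripotency genes and higher for most formative, contractile and imprinted genes. Of 15 core pluripotency genes, 3 were lower, Sox2 among them, while Pou5f1 was within 2-fold of the 0 h cells. All 22 cholesterol synthesis genes were within 2-fold too, as were 10433 of the 13056 genes compared. The comparison covers the genes with at least 1 FPKM in either of the 2 conditions, 13056 of the 22477 genes in the table. FPKM is the number of fragments of a gene scaled to the length of its transcript and to the depth of the library. Each condition had 2 libraries of polyadenylated RNA, and the authors combined them into 1 value per gene, so all values here stand without an error and no difference between conditions could be tested. Lower and higher mean a ratio of at least 2-fold of those values.

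All cells came from a single iPSC line that carries doxycycline (dox)-inducible transgenes for Oct4, Sox2, Klf4 and cMyc (OSKM), a GFP placed in the endogenous Nanog locus in place of one allele, and a constitutive nuclear RFP. The line was kept on CF1 mouse embryonic fibroblast (MEF) feeders with LIF and serum. For differentiation, the study's methods describe at least 24 h in 2i/LIF, seeding on gelatin, and a change to N2B27 medium that lacks both inhibitors and LIF. The 0 h –dox group was re-seeded directly from 2i/LIF into serum/LIF, and the 24 h –dox group after 24 h of this withdrawal. Neither received dox, so the OSKM transgenes were not induced. Other conditions were used for comparison, namely the same 2 re-seedings with 2 µg/ml dox (+dox), the cells re-seeded –dox after 48 h, and the withdrawal time course without re-seeding at 0, 24, 36, 48, 60, 72 and 96 h. The methods place re-seeded cells on MEFs for the colony assay and do not say whether feeders were present in the cells used for RNA.

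LIF acts through its receptor chains Lifr and Il6st and the kinase Jak1 to activate the transcription factor Stat3, which in mouse pluripotent cells sustains Klf4, Tfcp2l1 and other genes of the naive state. 2i adds inhibitors of the ERK pathway and of the kinase GSK3, the latter raising Wnt target activity. When both are removed, cells pass through a formative state marked by genes such as Fgf5, Pou3f1 and the de novo methyltransferases before they enter a lineage, and serum/LIF is a medium in which naive genes can be regained. In bulk RNA, fewer cells that express a gene and less RNA of that gene in each cell cannot be told apart.

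Of the 13056 genes, 1485 (11.4%) were lower and 1138 (8.72%) were higher in the 24 h than in the 0 h –dox cells, and 10433 were within 2-fold, so that 2623 genes (20.1%) differed. The median log2 ratio of 24 h to 0 h was -0.03, with quartiles of -0.47 and 0.36. At least 4-fold differences were found for 467 lower and 396 higher genes. Among the 7356 genes that reached 10 FPKM in either condition, 538 (7.31%) were lower and 329 (4.47%) higher. The share of genes that differed was smaller at higher expression, from 42.7% where the higher value was 1 to 2 FPKM to 9.75% where it was at least 50 FPKM. Just inside the threshold, Nqo1 stood at 31.1 FPKM at 0 h and 15.6 at 24 h, and just outside it Phkg2 stood at 20.2 and 10.1. On the higher side, Pcp2 (2.59 and 5.18 FPKM) was just inside and Tbpl1 (7.33 and 14.6) just outside. Of the 13056 genes, 24 were listed at 0 FPKM in one condition, and their other value was at most 3.64.

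**Figure D1:**
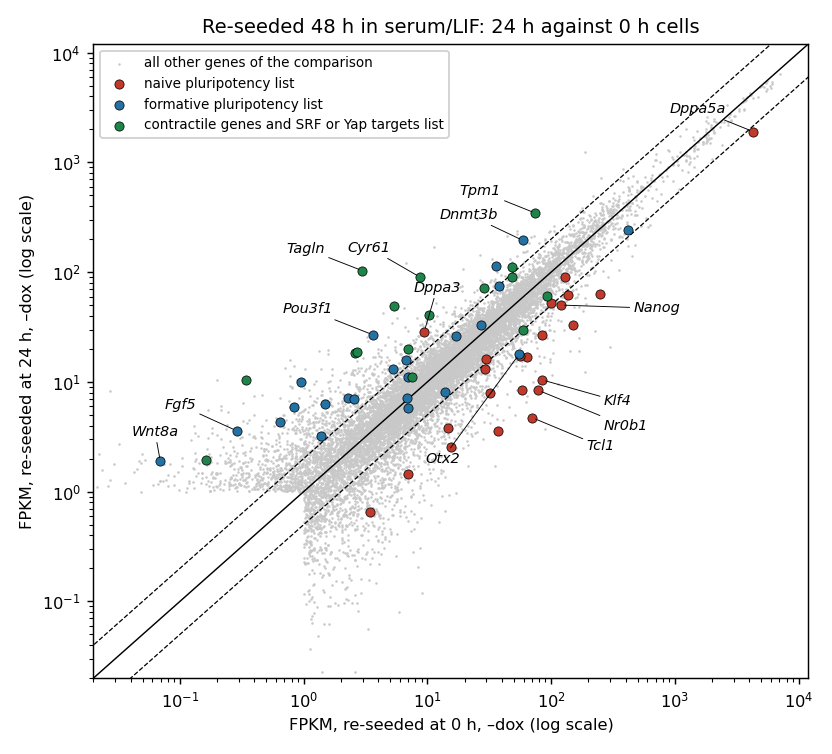
Expression in the 24 h against the 0 h cells, both re-seeded for 48 h in serum/LIF –dox, in FPKM on log axes. Each point is a gene above 0 in both values, the solid line marks equal values and the dashed lines 2-fold. The naive list lies mostly below the lower dashed line, with Dppa3 above the upper one, and most contractile genes lie above it.

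Naive pluripotency genes had the largest share of lower members among the 22 lists examined. Of 23 members with at least 1 FPKM, 19 were lower in the 24 h cells, 3 were within 2-fold and 1 was higher, against 11.4% of all genes lower. Their median log2 ratio was -1.94, beside -0.03 for all genes. Klf4, a transcription factor of the naive network and a target of LIF signalling, stood at 84.8 FPKM in the 0 h cells and 10.4 in the 24 h cells, an 8.14-fold lower value. It had been at 92.7 FPKM at 0 h of withdrawal, 23.3 at 24 h and 1.69 at 72 h. The re-seeded cells thus had less Klf4 than the cells at the time of re-seeding and more than cells left in N2B27 for 72 h. Klf4 lies at chr4:55527143-55532466 (mm10, minus strand).

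Esrrb, an orphan nuclear receptor that sustains self-renewal, stood at 151 FPKM in the 0 h and 33.2 in the 24 h cells. Tbx3 and Tfcp2l1, transcription factors downstream of LIF, stood at 58.1 and 8.49 FPKM and at 32.1 and 7.87 FPKM. Prdm14, a repressor of differentiation genes, stood at 7.03 and 1.45 FPKM. These 4 genes were also at least 2-fold lower after 24 h than at 0 h of withdrawal, Tfcp2l1 at 12.1 against 124 FPKM. Nanog (chr6:122707489-122714633, plus strand), the homeobox gene whose locus carries the GFP reporter, stood at 120.3 FPKM at 0 h and 50.1 at 24 h, 2.40-fold lower. It had been at 227 FPKM in 2i/LIF and 46.5 after 24 h of withdrawal. Nanog was therefore at nearly the same level after re-seeding as when the cells were re-seeded, with one allele carrying GFP in all groups.

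Another 8 of the lower naive genes had not been lower at 24 h of withdrawal. Zfp42 (Rex1), a zinc finger protein of undifferentiated cells, stood at 201 FPKM at 0 h and 192 at 24 h of withdrawal, then at 62.9 in the re-seeded 24 h cells against 246 in the 0 h cells. Fgf4, the ligand that activates ERK in these cells, stood at 82.6 and 79.1 FPKM in withdrawal and at 84.1 (0 h) and 26.5 (24 h) after re-seeding. Nr0b1 (Dax1), an orphan nuclear receptor, was higher in withdrawal, 43.5 FPKM at 0 h and 101 at 24 h, and yet 9.45-fold lower after re-seeding, 79.1 against 8.37 FPKM. Manba, a lysosomal mannosidase, had 10.2 and 13.3 FPKM in withdrawal and 37.0 and 3.57 after re-seeding. For these genes the lower level was reached between the time of re-seeding and 48 h in serum/LIF, and not before.

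Tcl1, a cofactor of the kinase Akt, had the largest ratio of the list, from 70.4 FPKM in the 0 h to 4.72 in the 24 h cells. Dppa5a, an RNA-binding protein of pluripotent cells, had the largest difference in FPKM of all lower genes, 4282 against 1913. Pecam1, Ooep, Nr5a2, Tet2, Mitf, Gbx2 and Klf5 were also lower, with log2 ratios between -2.62 and -1.15. Klf2 (129 and 90.9 FPKM), Eras (29.6 and 16.2) and Fbxo15 (99.0 and 52.5) were within 2-fold. Klf2, which shares functions with Klf4, had been at 197 FPKM in 2i/LIF and 69.5 after 24 h of withdrawal. Dppa3 (Stella), a maternal factor that guards DNA methylation, was the member that was higher, at 9.44 FPKM in the 0 h and 28.8 in the 24 h cells, after 168 FPKM at 0 h of withdrawal and 13.6 at 24 h.

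Of the 13 naive genes that were lower at 24 h of withdrawal, 11 remained lower after re-seeding, Klf2 was within 2-fold and Dppa3 was higher. Of all genes lowered by withdrawal and measured after re-seeding, 28.4% remained lower. The naive program was not at the level of prolonged withdrawal, however. Of 22 members with at least 1 FPKM in the 24 h re-seeded cells or at 72 h of withdrawal, 16 were at least 2-fold higher in the re-seeded cells and 0 were lower, beside 5.4% higher and 4.89% lower of all 12785 genes so compared.

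**Figure D2:**
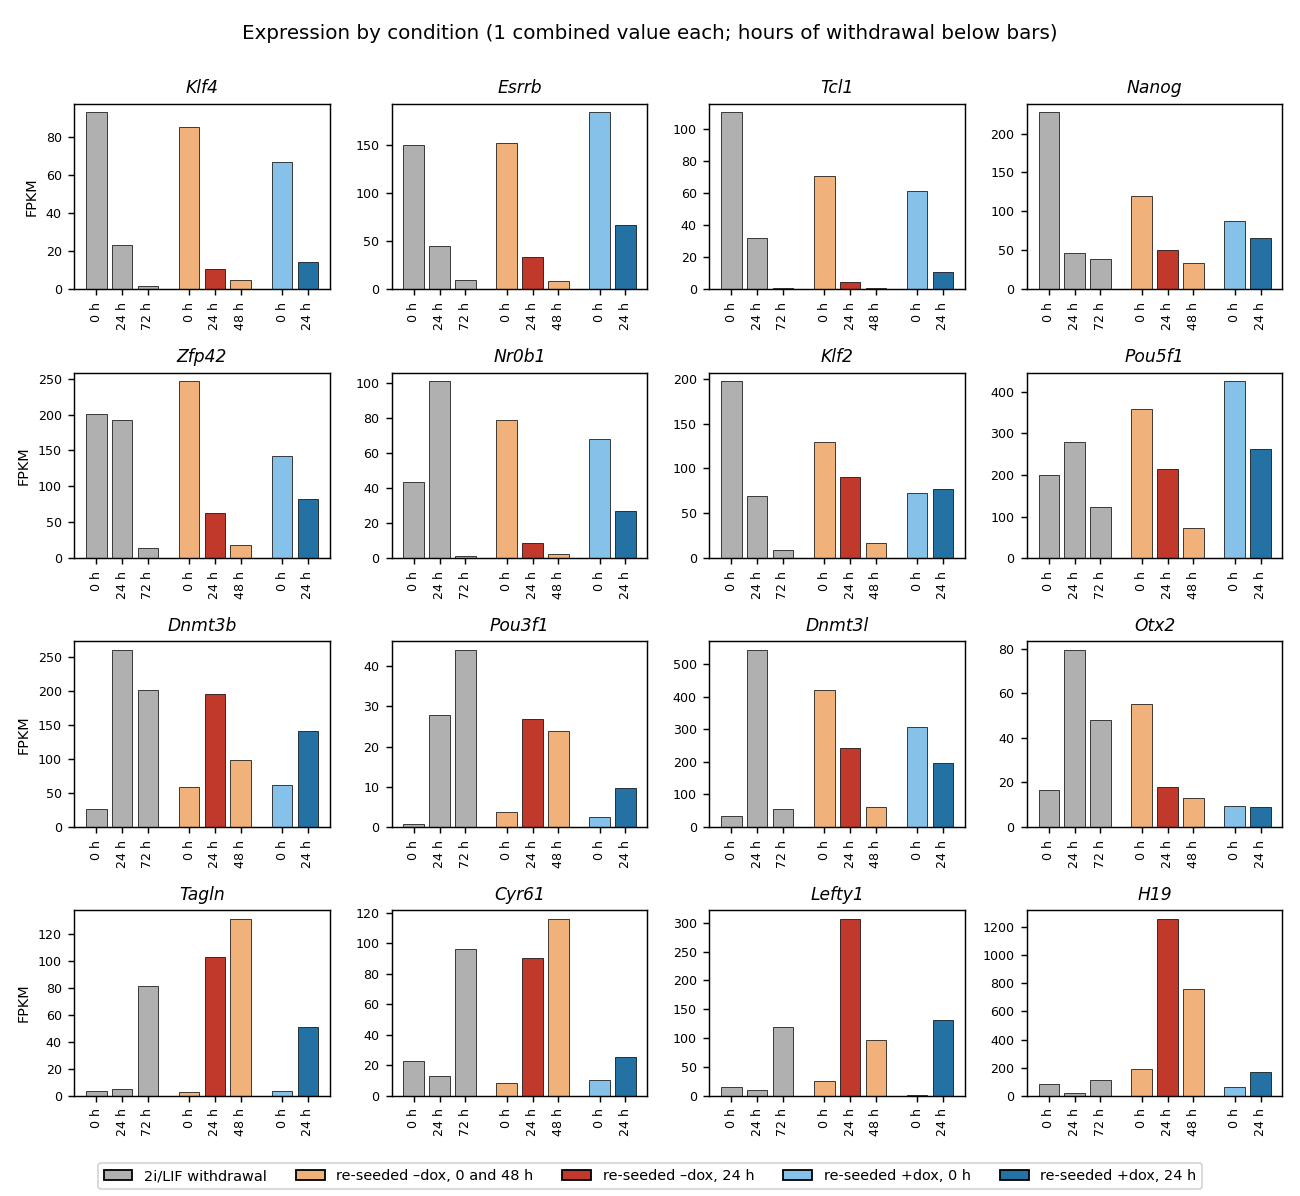
FPKM of 16 genes in 8 conditions, with bars from 0 and a separate axis per gene. Grey bars are 2i/LIF withdrawal, orange and red bars cells re-seeded –dox, and blue bars cells re-seeded +dox, each labelled with the hours of withdrawal. Klf4, Esrrb and Tcl1 were low in the red bar and lower still at 72 h of withdrawal, and Tagln, Cyr61 and Lefty1 were high in both.

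Core pluripotency genes differed less. Of 15 members, 3 were lower, 1 was higher and 11 were within 2-fold, with a median log2 ratio of -0.39. Among all genes, 11.4% were lower and 8.72% higher. Pou5f1, which encodes OCT4, stood at 360 FPKM in the 0 h and 213 in the 24 h cells, a log2 ratio of -0.75. Sox2, its partner, stood at 224 and 103 FPKM, and Tdgf1, a coreceptor for Nodal, at 612 and 258. Tet1, which oxidises methylated cytosine, stood at 64.2 and 24.6 FPKM. Lin28a, an RNA-binding protein that blocks let-7 maturation, was higher, at 66.1 and 183 FPKM. Utf1, a chromatin factor, had 62.5 FPKM in 2i/LIF and 613 after 24 h of withdrawal, and was within 2-fold after re-seeding (653 and 478 FPKM). Sall4, Trim28 and Rif1 had log2 ratios between -0.15 and 0.16.

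Formative genes were mostly higher. Of 23 members, 14 were higher in the 24 h cells, 1 was lower and 8 were within 2-fold, against 8.72% of all genes higher, and the median log2 ratio was 1.31. Pou3f1 (Oct6), a POU factor of the epiblast, stood at 3.64 FPKM in the 0 h and 26.8 in the 24 h cells, near the 27.9 FPKM reached at 24 h of withdrawal. Dnmt3b, a de novo DNA methyltransferase, stood at 59.0 and 195 FPKM. Fgf5, a ligand of the postimplantation epiblast, stood at 0.287 and 3.59 FPKM, below the 10.3 FPKM at 24 h of withdrawal. Wnt8a (0.0694 and 1.90 FPKM), Sall2 (0.840 and 5.95) and Fgf15 (0.644 and 4.34) had ratios of at least 6-fold at low levels, where 1 value per condition is least secure.

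The list was not uniform. Otx2, a homeobox factor that opens formative enhancers, was the lower member, at 55.2 FPKM in the 0 h and 17.9 in the 24 h cells, although 24 h of withdrawal had taken it from 16.6 to 79.3 FPKM. Dnmt3l, a catalytically inactive partner of the de novo methyltransferases, went from 34.7 to 542 FPKM in withdrawal and stood at 421 and 241 FPKM after re-seeding. Dnmt3a went from 9.71 to 180 FPKM in withdrawal and stood at 38.3 and 75 FPKM after re-seeding, just within 2-fold. Dnmt3l in the 0 h cells was thus far above its level in 2i/LIF, so the 0 h states of the 2 experiments differ for such genes. Of the 21 formative genes that were higher at 24 h of withdrawal, 12 were still higher after re-seeding, 8 were within 2-fold and Otx2 was lower. Of all genes raised by withdrawal and measured after re-seeding, 23.1% were still higher.

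Of 18 LIF and Stat3 genes, 3 were lower, 3 higher and 12 within 2-fold, beside 11.4% of all genes lower and 8.72% higher. Their median log2 ratio was -0.48, beside -0.03 for all genes. Lifr, the LIF receptor chain, stood at 13.3 FPKM in the 0 h and 3.23 in the 24 h cells, while it had been at 9.55 and 17.0 FPKM at 0 and 24 h of withdrawal. The shared receptor chain Il6st (13.8 and 10.6 FPKM), the kinase Jak1 (19 and 13.6) and Stat3 (30.3 and 21) were within 2-fold. Among these 4 components, Lifr was thus the one that differed.

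The targets of Stat3 went different ways. Socs3, its feedback inhibitor, stood at 73.6 FPKM in the 0 h and 26.4 in the 24 h cells, after 43.5 and 19.6 FPKM in withdrawal. Socs2 (37.3 and 50.8 FPKM) and the kinase genes Pim1 (107 and 188) and Pim3 (122 and 89.2) were within 2-fold. Pim1 went from 72.1 to 19.4 FPKM in withdrawal, and Bcl3, an IκB family member, from 93.2 to 22.1 FPKM, to stand at 41.4 and 30.7 FPKM after re-seeding. Of 6 genes of the list that were lower at 24 h of withdrawal, 5 were within 2-fold of the 0 h cells after re-seeding, and Socs3 was still lower. Of all genes lowered by withdrawal and measured after re-seeding, 60.5% were within 2-fold. Junb (21.3 and 44.9 FPKM), Cish (0.615 and 2.42) and Lif (1.79 and 3.81) were higher, and Stat5a (4.30 and 1.62) was lower.

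Among the ERK feedback genes, which report signalling through that pathway, 2 of 17 were lower, 3 higher and 12 within 2-fold. The shares of all genes were 11.4% lower and 8.72% higher. Etv4, an ETS factor, stood at 126 FPKM in the 0 h and 29.8 in the 24 h cells, and Spry4, a feedback inhibitor, at 41.5 and 17.7 FPKM. Dusp6, a phosphatase of ERK, stood at 41.9 and 56.4 FPKM, after 3.61 FPKM in 2i/LIF and 29.6 at 24 h of withdrawal. Of 9 genes of the list raised by withdrawal, 7 were within 2-fold after re-seeding, among them Myc (24.5 and 44.3 FPKM) and Egr1 (16.1 and 25.8). Of all genes raised by withdrawal and measured after re-seeding, 60.7% were within 2-fold. Of the 10 Wnt target genes measured, Notum (6.03 and 0.674 FPKM) and Sfrp1 (22.1 and 5.50), both secreted inhibitors, were lower, and Nkd1, Sp5 and Wnt8a were higher.

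Nodal and BMP genes moved in both directions, with 6 higher, 3 lower and 9 within 2-fold of 18. All genes had shares of 8.72% higher and 11.4% lower. The ligands Bmp4 (8.87 and 1.21 FPKM), Bmp7 (4.03 and 1.82) and Inhbb, an activin subunit (9.10 and 0.120), were lower, and Nodal (30.2 and 37.6) was within 2-fold. Lefty1, a Nodal antagonist and a target of its signal, stood at 25.2 FPKM in the 0 h and 306 in the 24 h cells, a 12.1-fold difference, while it had been at 15.0 and 9.40 FPKM in withdrawal. Lefty2, a related antagonist, was higher too, at 22.1 and 50.3 FPKM. Of the inhibitors of differentiation that respond to BMP, Id3 (5.38 and 48.9 FPKM) and Id2 (23.8 and 65.6) were higher and Id1 (58.7 and 89.7) was within 2-fold. Id4 (1.77 and 1.01 FPKM) and the feedback inhibitors Smad6 (4.85 and 4.03) and Smad7 (30.6 and 18.0) were within 2-fold as well.

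Contractile genes, with targets of the serum response factor SRF and of the coactivator Yap, had the highest median of the lists with at least 5 measured members. Of 16 members, 12 were higher, 0 lower and 4 within 2-fold, against 8.72% of all genes higher. The median log2 ratio of the list was 2.10. Tagln (transgelin), an actin-binding protein, stood at 2.99 FPKM in the 0 h and 103 in the 24 h cells, 34.5-fold higher. It had 3.88 and 4.98 FPKM at 0 and 24 h of withdrawal and 81.7 at 72 h. Cyr61, a secreted matrix protein and Yap target, stood at 8.71 and 90.2 FPKM, and Myl9, a myosin light chain, at 5.39 and 49.3. Tpm1 (tropomyosin, 74.6 and 345 FPKM), Ctgf (10.3 and 40.9), Thbs1 (2.72 and 18.9) and Acta2 (2.61 and 18.5) were higher as well. Vim (91.8 and 60.7) and Lmna (59.3 and 29.9), which encode filaments of the cytoplasm and nucleus, were within 2-fold. Of the 15 members with at least 1 FPKM at 0 or 24 h of withdrawal, Myl9 and Acta2 were higher at 24 h and 3 were lower, so most of these genes differed after the return to serum/LIF and not at the time of re-seeding.

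SRF binds the CArG box, and 3 RefSeq promoters (GRCm38.p6, the mm10 build, 250 bases before to 50 after the start) of contractile genes that held it are shown, because these genes differed together. The CArG box was chosen after the values had been seen. The box, on either strand, is in capitals. Acta1 (skeletal alpha actin, 0.782 and 15.9 FPKM) at chr8:123894726-123895025 on the minus strand holds it 73 bases before the start. Myl9 at chr2:156775214-156775513 and Vcl (vinculin, 7.02 and 19.8 FPKM) at chr14:20929148-20929447, both on the plus strand, hold it 161 and 227 bases before the start.
Acta1: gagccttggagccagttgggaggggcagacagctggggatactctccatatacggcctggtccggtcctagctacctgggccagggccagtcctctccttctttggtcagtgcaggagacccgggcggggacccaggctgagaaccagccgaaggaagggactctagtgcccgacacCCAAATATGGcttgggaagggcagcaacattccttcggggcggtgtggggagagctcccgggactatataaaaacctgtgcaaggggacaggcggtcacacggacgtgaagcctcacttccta
Myl9: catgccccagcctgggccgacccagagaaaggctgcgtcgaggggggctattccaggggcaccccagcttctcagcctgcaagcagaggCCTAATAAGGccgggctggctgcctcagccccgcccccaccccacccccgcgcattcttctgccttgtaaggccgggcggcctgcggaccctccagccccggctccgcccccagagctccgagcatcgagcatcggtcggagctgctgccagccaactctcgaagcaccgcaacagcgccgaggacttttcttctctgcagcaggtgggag
Vcl: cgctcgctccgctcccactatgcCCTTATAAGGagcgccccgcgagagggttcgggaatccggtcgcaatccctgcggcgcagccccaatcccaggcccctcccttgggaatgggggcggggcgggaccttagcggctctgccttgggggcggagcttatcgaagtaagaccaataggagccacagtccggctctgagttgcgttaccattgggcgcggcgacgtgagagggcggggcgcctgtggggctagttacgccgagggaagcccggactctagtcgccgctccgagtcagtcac
Acta1 is not on the list, of which Myl9 and Vcl were the 2 members with the box among 11 with a promoter in the table. Actg1, a higher gene outside the list, also holds the box. It was found in 17 (2.21%) of 769 higher genes and 11 (1.05%) of 1046 lower genes, beside 120 (1.25%) of the 9594 genes compared and 425 (1.57%) of all 27025 promoters of that length. A match of letters is a description and not evidence of binding.

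Imprinted genes were higher in 13 of 23 cases and lower in 0, with a median log2 ratio of 1.05. Of all genes, 8.72% were higher and 11.4% lower. H19 (chr7:142575529-142578143, minus strand), a maternally expressed long non-coding RNA, had the largest difference in FPKM of all higher genes, 189 at 0 h against 1256 at 24 h. It had been at 82.4 and 20.6 FPKM at 0 and 24 h of withdrawal, and its paternally expressed neighbour Igf2 stood at 4.01 and 18.3 FPKM after re-seeding. The 20 genes of a fibroblast list summed to 1077 and 122 FPKM at the same 2 withdrawal times. The part of feeders in the withdrawal values was not tested. In the Dlk1 and Meg3 cluster of chromosome 12, the non-coding RNAs Rian (217 and 494 FPKM) and Mirg (32.6 and 84.4), with Dlk1 (3.55 and 11.7) and Rtl1 (1.90 and 5.53), were higher, and Meg3 (248 and 347) was within 2-fold. Phlda2 (33.6 and 131), Cdkn1c (4.10 and 17.3) and Grb10 (7.30 and 22), which restrain growth, were higher as well. Both maternally and paternally expressed genes were among the 13.

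The genes with the largest ratios were in part outside the lists. Among genes reaching 10 FPKM, Khdc3, a component of the subcortical maternal complex, had the largest lower ratio, with 88.6 FPKM in the 0 h and 3.72 in the 24 h cells and 77.0 and 59.0 FPKM in withdrawal. Gm7325, the gene listed as 1-Sep, Pde8a (a cAMP phosphodiesterase), Apod (apolipoprotein D), Crxos (a homeobox gene), Mras (a Ras-like GTPase), Pla2g7 (a phospholipase), Lrrc31 and 2410137M14Rik were at least 14-fold lower. In the 24 h cells Lrrc31, Pde8a, Pla2g7, Mras, 2410137M14Rik and Crxos were at 0.529 to 0.973 FPKM, where 1 value per condition is least secure. The symbol 1-Sep, at 299 and 21 FPKM, is spelled as a date in the table, and its gene was not identified. Saa3, an acute-phase protein, stood at 21.2 and 1.70 FPKM after re-seeding, against 2019 at 0 h of withdrawal. At that time the fibroblast list summed to 1077 FPKM, and the part of feeders in the Saa3 value was not tested.

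On the higher side Kif1a, a kinesin of axonal transport, stood at 0.201 and 10.3 FPKM, and Cnn1 (calponin) at 0.343 and 10.4. Pim2, a kinase that promotes survival, stood at 6.73 FPKM in the 0 h and 122 in the 24 h cells, after 4.43 and 82.5 FPKM at 0 and 24 h of withdrawal. Pim2 was thus higher both at the time of re-seeding and after serum/LIF. Its promoter at chrX:7878056-7878355 (plus strand), shown because it holds ATGCAAA 3 times, was also chosen after values were seen, and capitals mark that word on either strand. ATGCAAA is the larger part of the octamer read by POU factors such as OCT4, and the search did not ask for the last base of the octamer.
Pim2: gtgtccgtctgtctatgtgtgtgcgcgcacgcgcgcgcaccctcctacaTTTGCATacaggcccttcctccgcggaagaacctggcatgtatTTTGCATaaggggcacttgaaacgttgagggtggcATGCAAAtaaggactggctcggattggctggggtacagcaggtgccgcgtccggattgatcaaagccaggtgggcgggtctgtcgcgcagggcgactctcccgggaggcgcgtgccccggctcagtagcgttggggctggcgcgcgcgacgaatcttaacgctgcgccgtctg
The word was found in 22 (2.86%) of 769 higher genes and 43 (4.11%) of 1046 lower genes, beside 306 (3.19%) of the 9594 genes compared and 1241 (4.59%) of all 27025 promoters.

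Car4, a membrane carbonic anhydrase, stood at 11.4 and 169 FPKM, and Gbp2, a GTPase induced by interferon, at 0.838 and 13.8. Fndc3c1, Syt13 (a synaptotagmin), Gap43 (a growth cone protein), Prom1 (CD133) and Plac8 were 12.6-fold to 19-fold higher, from 0.701 to 1.57 FPKM at 0 h. Apart from H19, Lefty1 and Rian, the higher genes with the largest differences in FPKM were Actg1 (cytoplasmic actin, 384 and 873) and Arpp19 (an inhibitor of the phosphatase PP2A, 253 and 714). Arpp19 had been at 813 and 814 FPKM at 0 and 24 h of withdrawal, and stood at 663 and 439 with dox. Eif4a2 (629 and 269 FPKM), Upp1 (449 and 141) and Capns1 (476 and 177) have roles in translation, uridine breakdown and calpain activity. Together with Dppa5a and Tdgf1 they were the 5 lower genes with the largest differences.

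**Figure D3:**
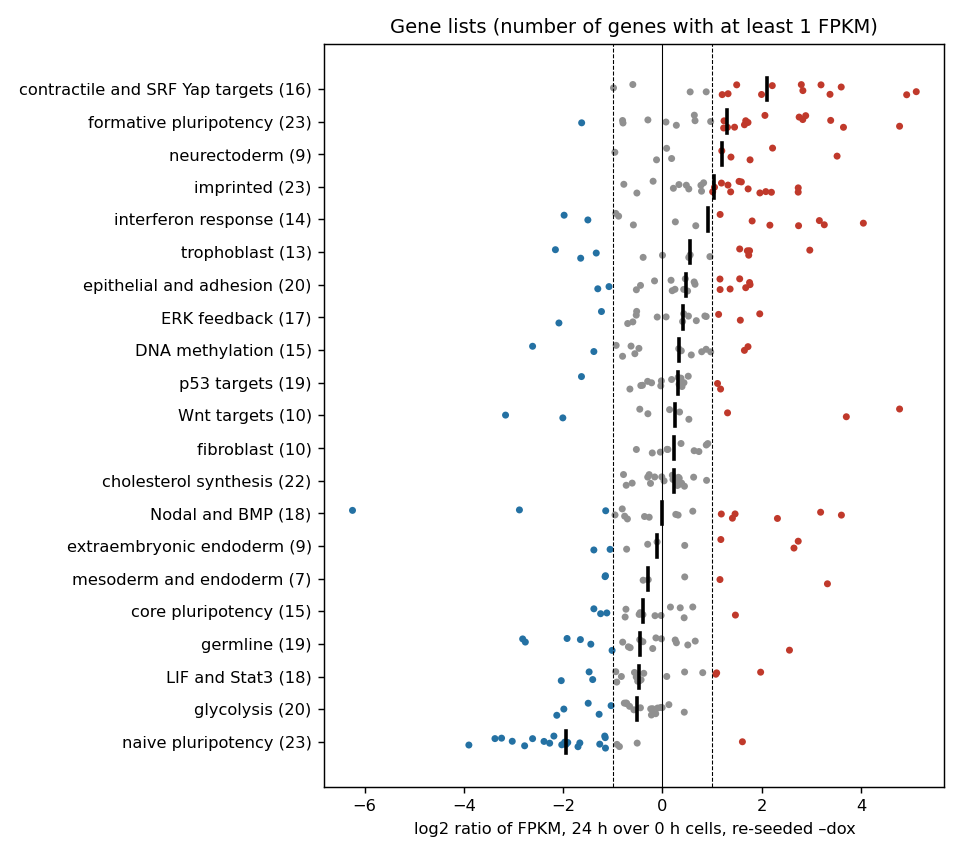
Log2 ratio of 24 h to 0 h cells, both re-seeded –dox, for the genes of 21 lists with at least 5 measured members. Each point is a gene, red at least 2-fold higher and blue at least 2-fold lower, bars are list medians and dashed lines mark 2-fold. The naive list has the lowest median (-1.94) and the contractile list the highest (2.10).

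Of 7 mesoderm and endoderm genes with at least 1 FPKM, 2 were higher and 2 lower, with the highest value of any at 5.23 FPKM (Hhex at 0 h). Neurectoderm genes were higher in 5 of 9 cases and lower in 0, a count that was 3 with a pseudocount of 1 FPKM, and Nes (nestin), an intermediate filament of neural progenitors, stood at 1.57 and 18.0 FPKM. Sox1 (1.21 and 1.37 FPKM) and Pax6 (1.98 and 1.82), which define neural fate, were within 2-fold. Of 13 trophoblast genes, 5 were higher and 3 lower, and the keratins Krt8 (33.8 and 114 FPKM) and Krt18 (73.0 and 215) led in level. Extraembryonic endoderm genes numbered 3 higher and 2 lower of 9. Of the epithelial and adhesion genes, 7 of 20 were higher and 2 lower, while Cdh1 (112 and 134 FPKM), the epithelial cadherin, was within 2-fold. The 2 members of the two-cell-like list with 1 FPKM, Zscan4d and Zscan4f, were higher at no more than 1.44 FPKM. For comparison, 8.72% of all genes were higher and 11.4% lower.

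Both metabolic lists held no higher gene. Of 20 glycolysis genes, 5 were lower (9 at a threshold of 1.5-fold) and 0 higher. The 5 were the phosphofructokinase Pfkp (104 and 23.9 FPKM), the hexokinases Hk1 (36.2 and 9.14) and Hk2 (85.1 and 35.1), Aldoc (24.3 and 8.63) and Pdk1 (131 and 63.9), which inhibits pyruvate dehydrogenase. The most abundant genes of the list were within 2-fold, with Gapdh at 2056 and 1871 FPKM. All 22 cholesterol synthesis genes were within 2-fold. Germline genes were lower in 6 of 19 cases and higher in 1, and Dazl, an RNA-binding protein of germ cells, stood at 16.6 and 2.45 FPKM. In the DNA methylation list, Tet1 and Tet2 were lower and Dnmt3b and Gadd45g higher, while the maintenance factors Dnmt1 (64.4 and 46.4 FPKM) and Uhrf1 (143 and 75) were within 2-fold. Of 14 interferon response genes, 7 were higher and 2 lower, among them B2m, the light chain of MHC class I, at 19 and 67.0 FPKM. Of 19 p53 targets, 2 were higher and 1 lower. Beside all of these lists, 8.72% of all genes were higher and 11.4% lower.

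The differences after re-seeding were mostly not those present at 24 h of withdrawal. In withdrawal, 1848 (14.3%) of 12884 genes were lower and 1113 (8.64%) higher at 24 h than at 0 h, in other libraries than those of the re-seeded cells. Of the 1848, 1465 had at least 1 FPKM in the re-seeded cells, and 416 of them (28.4%) were lower there too, 887 were within 2-fold and 162 were higher. Of the 1113 raised genes, 962 were measured, and 222 (23.1%) were still higher, 584 within 2-fold and 156 lower. Bhlhe40 and Elf3, transcription factors chosen after their values were seen, went from 19 to 1.16 and from 61.7 to 5.28 FPKM in withdrawal and were within 2-fold after re-seeding, at 18.9 and 15.5 FPKM and at 21.3 and 21.6 FPKM.

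Seen from the re-seeded cells, 1319 of the 1485 lower genes had a withdrawal ratio, and 416 (31.5%) of these were lower, 747 within 2-fold and 156 higher at 24 h. For all genes of the comparison with a withdrawal ratio, 12% were lower. Of the higher genes, 786 had such a ratio, and 222 (28.2%) were higher, 402 within 2-fold and 162 (20.6%) lower, beside 7.89% higher and 12% lower of all genes with such a ratio. H19, Igf2, Phlda2 and Thbs1 are of the last kind. The same direction in both comparisons was thus seen for 416 lower and 222 higher genes, though their 0 h cells were in different media. Of the lower genes, 1219 had at least 1 FPKM in the 24 h re-seeded cells or at 24 h of withdrawal. Of these, 553 (45.4%) were at least 2-fold below their level at 24 h of withdrawal, beside 8.84% of all genes so compared. The lower genes were chosen for a low value in the same re-seeded cells, so part of this excess is built in. Whether a level was left unrestored was not tested. Most genes that differed after re-seeding and had a withdrawal ratio had been within 2-fold, or moved the other way, when the cells were re-seeded. Fibroblast genes moved with the withdrawal comparison. The 20 genes of the fibroblast list, all above 0 at both times, summed to 1077 FPKM at 0 h and 122 at 24 h of withdrawal, with Col1a1 at 229 and 21, and their part in the genes lowered by withdrawal was not tested.

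**Figure D4:**
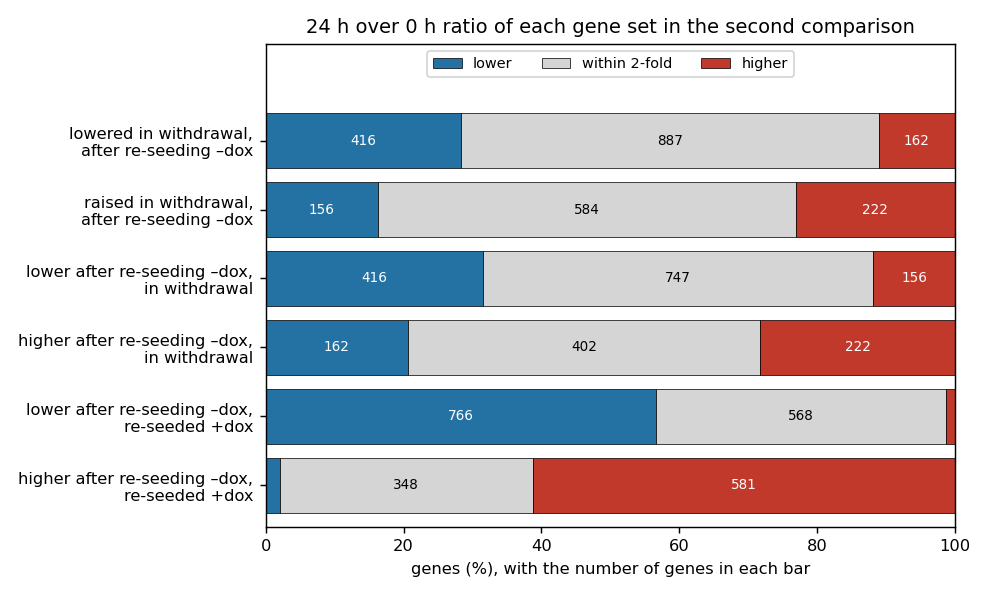
Share of genes lower, within 2-fold or higher for 6 gene sets, with counts in the bars. The first 2 bars give genes that withdrawal lowered or raised by their ratio after re-seeding –dox. The others give genes lower or higher after re-seeding –dox by their 24 h to 0 h ratio in withdrawal and after re-seeding +dox, where 766 and 581 genes had the same direction.

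Against the withdrawal course, the 24 h re-seeded cells were nearest to 60 and 72 h. Between the 24 h –dox cells and cells at 72 h of withdrawal, 1316 of 12785 genes (10.3%) differed at least 2-fold, and against 60 h it was 10.4%. The share was 25.5% against the 24 h of withdrawal from which they had been re-seeded, and 28.2% against 0 h. At 36, 48 and 96 h it was 19.7%, 15.6% and 17.9%. The 0 h –dox cells were nearest to 0 h of withdrawal (22.1%) and differed in 26.9% of genes from 72 h. The 24 h cells had by then spent 24 h in N2B27 and 48 h in serum/LIF, the same 72 h in all. The 24 h +dox cells, with the same total time, were nearest to 60 h (12.7%), with 13.3% against 72 h. The part of elapsed time in these shares was not tested. The number of steps between low values that make up 1 FPKM of a 2 kb gene, a rough gauge of depth, was 29.0 to 31.9 at 36 to 72 h of withdrawal and 93.1 in the 24 h cells. It was 68.9, 124 and 108 at 0, 24 and 96 h of withdrawal. The 0 h and 48 h –dox cells had 118 and 30.8, and the part of depth in these shares was not tested.

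The lists show where the 2 states parted, in both directions. Of 22 cholesterol synthesis genes, 8 were at least 2-fold lower in the re-seeded cells than at 72 h of withdrawal and 0 were higher. Of 23 formative genes so compared, 6 were lower and 4 higher. Over all 12468 genes of the comparison set against 72 h, 3.6% were lower and 5.54% higher. Cyr61 (90.2 FPKM in the re-seeded 24 h cells and 96.0 at 72 h of withdrawal), Myl9 (49.3 and 49.0), Rian (494 and 483) and Lin28a (183 and 181) were at nearly equal levels. Tcl1 (4.72 and 1.00), Zfp42 (62.9 and 14.6), Klf5 (61.8 and 7.76), Klf2 (90.9 and 8.67) and Tdgf1 (258 and 17.6) were more than 4-fold higher in the re-seeded cells, and H19 (1256 and 116) more than 10-fold. Cells re-seeded –dox after 48 h of withdrawal, compared only side by side, had less Klf4 (4.68 FPKM), Esrrb (8.31), Zfp42 (18.1) and Klf2 (17.2) and more Tpm1 (938), Krt18 (1268) and Car4 (640) than the 24 h cells.

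**Figure D5:**
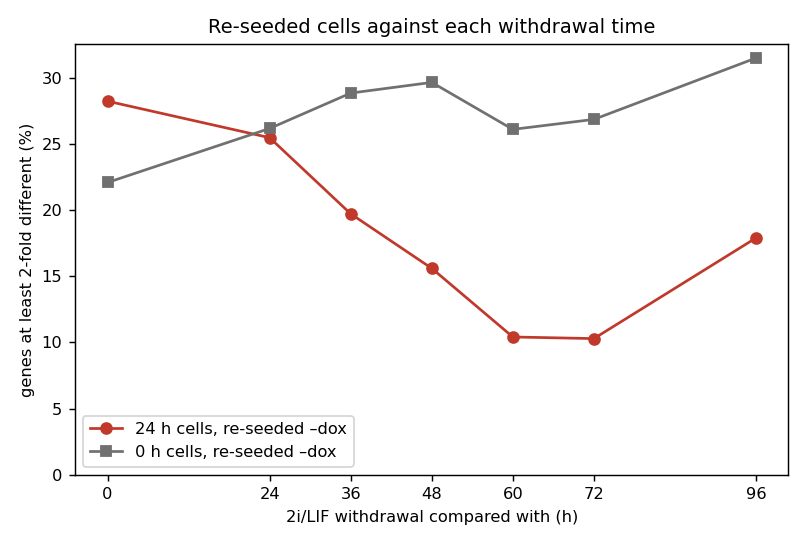
Percent of genes at least 2-fold different between re-seeded –dox cells and each time of 2i/LIF withdrawal, among genes with at least 1 FPKM in either value. The 24 h cells (red) reach their lowest values at 60 and 72 h, 10.4% and 10.3%, and the 0 h cells (grey) theirs at 0 h, 22.1%.

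Re-seeding with dox, which induces OSKM, allowed the same contrast in separate samples. There, 1261 (9.78%) of 12889 genes were lower and 1156 (8.97%) higher in the 24 h than in the 0 h cells. Of 1352 genes lower without dox and measured with it, 766 (56.7%) were also lower, 568 within 2-fold and 18 higher. Of 948 genes higher without dox, 581 (61.3%) were also higher, 348 within 2-fold and 19 lower. Over all genes of the comparison with a +dox ratio, 8.93% were lower and 8.62% higher. Most of the genes that differed without dox, and were measured with it, thus differed in the same direction in another pair of conditions.

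Of the naive list, 12 of 23 genes were lower with dox, all of them lower without it, and the median log2 ratio was -1.18. Klf4 (66.7 FPKM at 0 h and 14.2 at 24 h, +dox), Esrrb (183 and 66.5), Tcl1 (61.4 and 10.4) and Tfcp2l1 (56.0 and 12.2) were lower in both. Nanog (87.8 and 65.9 FPKM), Zfp42 (142 and 81.8), Fgf4 (81.1 and 83.0), Pecam1 (47.7 and 25.9) and Gbx2 (5.68 and 7.05) did not reach 2-fold with dox. Sox2 (122 and 121 FPKM) and Tdgf1 (311 and 264) did not either, and Pou5f1 stood at 425 and 262. Reads of the transgenes and of the endogenous OSKM genes were not told apart. Of the contractile list, 8 of 15 genes were higher with dox, Tagln at 3.48 and 50.9 FPKM, and Khdc3 was low in the 24 h cells here too, at 47.1 and 1.91. The difference between the +dox and –dox ratios of any gene could not be tested.

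Whole-table values bear on these results as follows. The values of the 0 h and 24 h –dox conditions summed to 665942 and 650564 FPKM, with 3282 and 2756 genes at 0. Median-ratio and total scaling factors of 24 h to 0 h were 1.00 and 0.977, and no further scaling was applied. The labelled cell type was present in both, with Pou5f1, Sox2, Sall4 and Utf1 at 94.2 FPKM or more. Of 20 fibroblast genes, which would mark feeders, 10 reached 1 FPKM and 0 differed. Their summed levels were 26.5 FPKM in the 0 h and 32.7 in the 24 h cells, 3 and 1 of the 20 being at 0, with Col1a1 at 1.45 and 1.54. Histone genes Hist1h2bg (169 and 19 FPKM) and Hist1h2ab (87.6 and 16.9), chosen after their values were seen, have near-identical copies that share reads and are uncertain.

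With 1 combined value per condition, the spread between the 2 replicates is not known here, and differences near 2-fold or at a few FPKM cannot be told from it. How many reads stand behind a value is also unknown.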

How the data were processed

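Polyadenylated RNA of 15 conditions, each with 2 replicates (30 samples), was sequenced. Per the methods, the authors aligned reads to mm10 with TopHat2 2.0.14, kept Gencode M4 transcripts of 6 biotypes and at least 200 bp, and computed FPKM with Cufflinks 2.2.1 and Cuffdiff. The deposited table holds 1 FPKM value per gene and condition, the authors' value over both replicates, so replicate values were not used here, and no count, error, p-value or interval could be computed. Columns with the authors' own calls of differing genes were not used.

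Genes listed at 1 FPKM or more in one or both conditions were compared by plain ratios, without a pseudocount, at a threshold of 2-fold. Computation used pandas 2.3.3 and numpy 2.4.6 under Python 3.11.15, with matplotlib 3.10.9 for plots and scipy 1.17.1. Named genes were the 12 largest ratios in each direction among genes reaching 10 FPKM, the 5 largest differences in each direction, and members of the gene lists. Exceptions are named as chosen after their values were seen. The comparison and the 22 lists were chosen with earlier results of these data known. Alternatives were other minimums, folds, pseudocounts (0.1 and 1 FPKM) and scalings, with median-ratio and total scaling among them. Positions are from Gencode M21 (mm10), which held 94.9% of the symbols, and promoters from RefSeq (GRCm38.p6), which held 9594 of the genes compared. The 27 symbols spelled as dates were not resolved.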

Additional observations from a re-analysis of the deposited data

Results flagged for a closer look

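Gadd45g, Rhox6 and Rhox9 moved in opposite directions without and with dox, with at least 10 FPKM in both contrasts. Gadd45g, a stress-induced factor linked to DNA demethylation, had a log2 ratio of 24 h to 0 h of 1.65 without dox (11.4 and 35.7 FPKM) and -1.39 with dox (56.5 and 21.6 FPKM). Rhox6, a homeobox gene of the X chromosome, had 1.40 without dox (13.4 and 35.5 FPKM) and -1.63 with dox (33.6 and 10.9 FPKM). Rhox9, its neighbour in the same cluster, had 1.59 without dox (8.63 and 26.1 FPKM) and -1.15 with dox (14.2 and 6.37 FPKM). The difference was not tested for any of them, since each condition has 1 value. At the 1 FPKM minimum, 37 genes moved in opposite directions in this way, 19 higher without dox and 18 lower.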

How the results depend on the processing

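No paired analysis was possible because the deposited table holds 1 value per condition over both replicates. For the same reason the replicate block and the fits leaving out a replicate were not run. No value past the threshold changed direction under the alternatives run. With a pseudocount of 1, however, 17 of the 34 ratios of named single genes moved. Pla2g7 went from a log2 ratio of -3.82 to -2.74, and Kif1a from 5.68 to 3.24. The Nodal and BMP median, near 0, was -3.54e-05 and became 0.0216 with a pseudocount of 1. No alternative was run for the order of the withdrawal times, the list counts against 72 h, the chromosomes or the families. The 1138 higher genes became 4165 with no minimum, 503 at 5 FPKM, 329 at 10 FPKM, 622 with 1 FPKM in both values, 2120 at 1.5-fold, 585 at 3-fold and 682 with a pseudocount of 1. The 1485 lower genes became, in the same order, 3525, 804, 538, 945, 2730, 722 and 951. Scaling and a pseudocount of 0.1 kept both counts within 1.5 times, from 1084 to 1237 and from 1432 to 1487. At 1.5-fold, 3-fold and a pseudocount of 1, the share of lower genes also lower in withdrawal was 40.8%, 22.3% and 25.3%, and that of lower genes also lower with dox 60.0%, 49.1% and 52.3%. At these settings the share of genes lowered by withdrawal that were still lower was 39.0%, 19.8% and 23.1%. The share of higher genes also higher in withdrawal was 33.3% with the 10 FPKM minimum in both comparisons (26.5%, 85 of 321, with that minimum in the re-seeded cells alone), then 34.8%, 24.5% and 21.1%, and that of raised genes still higher 19% at 10 FPKM, then 27.9%, 19% and 16.8%. The share of higher genes also higher with dox was 55.2% at 10 FPKM, 54.2% at 3-fold and 48.4% with a pseudocount of 1. For the lists, only 1.5-fold, a pseudocount of 1 and median-ratio scaling were run, and not 3-fold or other minimums. Under these, the counts of naive (19 lower), formative (14 higher), contractile (12 higher) and imprinted (13 higher) genes stayed within 1.5 times. The 5 higher neurectoderm genes became 3 with a pseudocount of 1, and the 5 lower glycolysis genes 9 at 1.5-fold. The share of genes differing from 72 h of withdrawal, with alternatives added after seeing the data, was 5.42% at 10 FPKM, 24.3% at 1.5-fold, 4.08% at 3-fold and 5.25% with a pseudocount of 1. The spread between replicates and the reads behind each value limit all of these, most at low FPKM.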

Other observations

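Gene families, chosen after their values were seen, differed in how their members moved between the 24 h and the 0 h –dox cells. Over all genes, 11.4% were lower and 8.72% higher. Of 35 measured genes with a Cd symbol, many of which encode cell surface proteins, 13 were lower and 3 higher. Of 14 Klf genes, zinc finger transcription factors, 5 were lower and 2 higher. Of 8 synaptotagmins, which bind calcium and membranes, 4 were higher and 0 lower, and of 10 proteasome Psmb genes 3 were higher and 0 lower. Fibroblast growth factors were split, with 5 higher and 4 lower of 10. Ribosomal protein genes were steady, with 2 lower and 0 higher of 80. No family was tested against the shares over all genes, and counts in families this small are a description.

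On the X chromosome, 77 of 442 genes (17.4%) were higher and 7.47% lower, while the 19 autosomes had 5.63% to 13.0% higher. The median log2 ratio was 0.11 on the X chromosome and -0.13 to 0.08 on the autosomes. In withdrawal, 14.5% of X-linked genes were higher at 24 h than at 0 h, and the highest autosomal share was 10.9%, on chromosome 14. With dox, 12.3% of X-linked genes were higher, within the autosomal range of 3.83% to 13.7%. The chromosomes were compared after seeing the values, and genes of one chromosome are not independent.

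Within 200 kb of H19, 4 of the 6 measured genes were higher, H19 among them, with Lsp1 at 0.494 and 2.80 FPKM and Tnnt3 at 0.966 and 3.74. Within the same distance of Khdc3, 5 of 8 were lower, Khdc3 among them, with Rab27a, a vesicle transport GTPase, at 8.89 and 2.72 FPKM. For all genes the shares were 8.72% higher and 11.4% lower. H19 and Khdc3 were picked for these windows after their values were seen, and the counts were not tested. The predicted genes Gm10800 (53.4 and 225 FPKM) and Gm26870 (26.6 and 144 FPKM) were higher, and their values are uncertain because their copies share reads.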
